A study of Boehmeria nivea with 18 samples.

Results

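The microRNAs (miRNAs) miR397, miR398 and miR408, whose levels are tied to copper supply in plants, were followed in the stem bark of ramie (Boehmeria nivea), a bast fiber crop. Small RNA libraries were compared between bark of the middle stem section (MPS), where the fiber cells were laying down secondary walls, and bark of the top stem section (TPS), where this had not yet begun. Each section had 3 libraries of the untreated cultivar Zhongzhu 1, at an age of 40 days per the labels. The methods state a younger age and that sections were mixed, and the labels name 5 plants without saying how they were divided over the replicates. Members were all mature miRNAs listed under the 3 family names, limited to the 10 with the highest mean level. Of 379 miRNAs listed, 11 carried these names, and miR408b_1, with 0 to 3 tags per library, was left out by that limit. Thus 4 isoforms of miR397, 4 of miR398 and 2 of miR408 are described.

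In Arabidopsis, the transcription factor SPL7 raises these families when copper is short, and they then lower the transcripts of copper proteins that the cell can spare. miR397 cuts the transcripts of laccases, copper oxidases that couple monolignols into lignin. miR398 acts on Cu-Zn superoxide dismutases and on the chaperone that loads them with copper, while an iron superoxide dismutase takes over. miR408 acts on plantacyanin, a small blue copper protein, and on further laccases.

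The isoforms of a family overlapped in sequence, and their start decides the seed, the bases 2 to 8 that are in capitals here. The mature sequences are those that the study's list of miRNAs gives, written as DNA from 5′ to 3′, and those shown carry the levels and contrasts that follow.
miR397a_2: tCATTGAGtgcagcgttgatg
miR397a_5: aTTGAGTGcagcgttgatgaa
miR397a_4: tTGAGTGCagcgttgatgaaa
miR398b: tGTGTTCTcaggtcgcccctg
miR398a-3p_1: tGTGTTCTcaggtcacccctt
miR398b-3p_1: tTGTGTTCtcaggtcacccct
miR408-3p_2: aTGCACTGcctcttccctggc
miR408d: tGCACTGCctcttccctggc
The 4 miR397 isoforms shared a run of 18 bases and had 3 different seeds, since miR397a_5 started 2 bases and miR397a_4 started 3 bases downstream of miR397a_2. The short isoform miR397_1 had the start of miR397a_5 and ended 1 base earlier. All 4 lay in 1 precursor stretch. Within miR398, miR398b and miR398a-3p_1 had the same seed and differed by G15A and G21T, with positions counted from the 5′ end of miR398b and its base given first. The isoform miR398 ended 1 base earlier than miR398a-3p_1, and miR398b-3p_1 started 1 base upstream. The 3 isoforms with A at position 15 shared a precursor stretch. In the stretch listed for miR398b, 187 of 300 bases were unread, so that most of it could not be compared with theirs. For miR408, miR408d lacked the first base of miR408-3p_2 and was otherwise identical with it, so that the first base was A in miR408-3p_2 and T in miR408d. Positions in the genome were not analysed here.

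Levels are given as TPM, the tags of a miRNA per 1000000 tags of its library. The libraries held 27.6 to 32.0 times 1000000 tags, of which 2595935 to 4605227 were known mature miRNAs. A count of 3 tags, the upper limit that a count of 0 allows, was 0.0939 to 0.109 TPM in these libraries. Such limits, and the intervals given with shares and counts, cover counting error only. The methods name no molecular identifiers, and without them copies of 1 molecule cannot be told from separate molecules. TPS replicate 3 was the smallest library and had the fewest known miRNA tags. The replicate 1 libraries stood apart from the others over all miRNAs. Log2 levels of 327 miRNAs correlated at Pearson's r = 0.886 between MPS replicate 1 and TPS replicate 1. Within the sections, r was 0.768 and 0.714 for MPS replicate 1 with its fellow libraries, and 0.765 and 0.716 for TPS replicate 1 with its own. These are descriptions across miRNAs, which are not independent replicates.

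No difference between MPS and TPS beyond the spread of the libraries was detected for the members tested, nor for any other miRNA in the same test. The test was edgeR's quasi-likelihood test on counts, with 329 miRNAs left after its low-count filter. Calls needed a Benjamini-Hochberg adjusted p under 0.05 together with a change of at least 1 on the log2 scale in either direction. Of the 10 members, 7 passed the filter and 0 were called, and 0 had an unadjusted p under 0.05 in edgeR. Over all miRNAs tested, edgeR called 0.0%, and 17.9% had an unadjusted p under 0.05. The log2 fold changes of MPS over TPS were positive for 4 members and negative for 3, between -1.06 and 1.18, and 2 of the 7 were at least 1 in size. Over all miRNAs tested, 45.6% were positive and 35.6% were at least 1 in size. Their median was 0.03, against -0.19 over all 329 miRNAs. The lowest adjusted p of a member was 0.314, from this edgeR fit. Over all miRNAs, other fits did give calls. DESeq2 called 47, limma called 9, and edgeR called 31 with a term for replicate 1. No member was among them. Of the 7 members tested, the sections did not overlap in 1, miR397a_5, against 30.4% of all miRNAs tested. They overlapped in the members that did not pass the filter. In bulk bark, fewer cells of a type and less RNA per cell cannot be told apart.

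**Figure D1:**
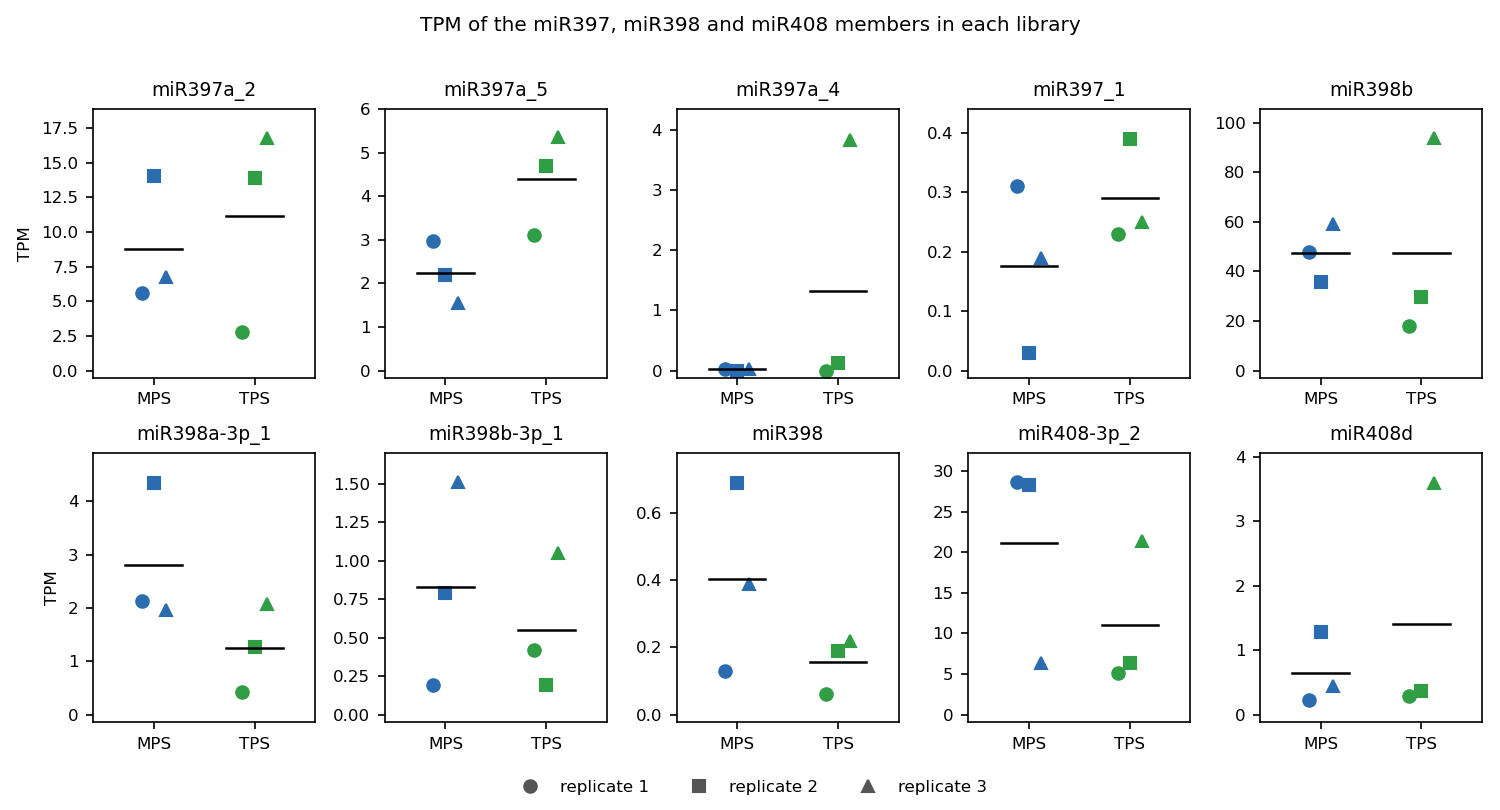
TPM of each of the 10 members (vertical axes, linear, different for each panel) in the 3 MPS and the 3 TPS libraries, with marker shapes for the replicate number and black lines for the means. Only for miR397a_5 did all MPS libraries lie below all TPS libraries, and TPS replicate 3 held the highest level of 5 members.

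Of the miR397 isoforms, the laccase-directed family, miR397a_2 was the most abundant. It had 5.57, 14.0 and 6.75 TPM in MPS replicates 1, 2 and 3, against 2.79, 13.9 and 16.8 TPM in TPS replicates 1, 2 and 3. The sections overlapped over nearly their whole range, with the lowest and the highest library both in TPS. The log2 fold change was -0.35 (standard error 0.77, adjusted p = 0.798 from edgeR).

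miR397a_5, the isoform cut 2 bases further downstream, had 2.97, 2.19 and 1.54 TPM in MPS, against 3.12, 4.69 and 5.37 TPM in TPS. Every MPS library was lower than every TPS library, but the gap between the highest MPS and the lowest TPS library, both of replicate 1, was small beside the spread within TPS. These were 95 tags in MPS replicate 1 and 96 tags in TPS replicate 1. The means were 2.23 ± 0.716 TPM in MPS and 4.39 ± 1.15 TPM in TPS (SD, n = 3 each; two-sided exact permutation test on log2 values, p = 0.1, the smallest that 3 against 3 allow). The log2 fold change was -0.97 (standard error 0.48, adjusted p = 0.314 from edgeR). Among all miRNAs tested, 18.2% had every MPS library below every TPS library. The log2 fold change of miR397a_5 was negative in each of 14 alternative fits, between -1.30 and -0.68, with adjusted p from 0.128 to 0.648.

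The level of miR397a_4 rested on 1 library. There were 1, 0 and 1 tags in the MPS libraries, against 0, 4 and 106 tags in the TPS libraries, or 0.03, 0 and 0.03 TPM against 0, 0.13 and 3.84 TPM. TPS replicate 3 thus held 106 of the 112 tags (exact 95% Poisson interval of the count, 86.8 to 128), and without it 2 tags in MPS stood against 4 tags in the other TPS libraries. The sections overlapped, since MPS replicates 1 and 3 had a tag and TPS replicate 1 had none. miR397a_4 did not pass the filter on low counts. Its fitted log2 fold change without a filter was -5.57 (adjusted p = 0.296 from edgeR), and it depends on how counts near 0 are treated. The shortest isoform, miR397_1, had 1 to 10 tags per library in MPS and 7 to 12 in TPS, and did not pass the filter either.

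In total, miR397 isoforms had 8.88, 16.3 and 8.51 TPM in MPS, against 6.14, 19.1 and 26.3 TPM in TPS. The totals overlapped, and the log2 ratio of the means was -0.61. The mix of isoforms varied between libraries. miR397a_2 took 62.7 to 86.3% of the family's tags in MPS and 45.5 to 72.8% in TPS. It was lowest in the replicate 1 library of each section, where miR397a_5 took 33.5% in MPS and 50.8% in TPS. In TPS replicate 3, miR397a_4 took 14.6% of the family (95% Wilson interval 12.3 to 17.4%), against at most 0.677% in any other library. Thus most miR397 tags began with T in 5 libraries, while in TPS replicate 1 54.5% began with A.

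**Figure D2:**
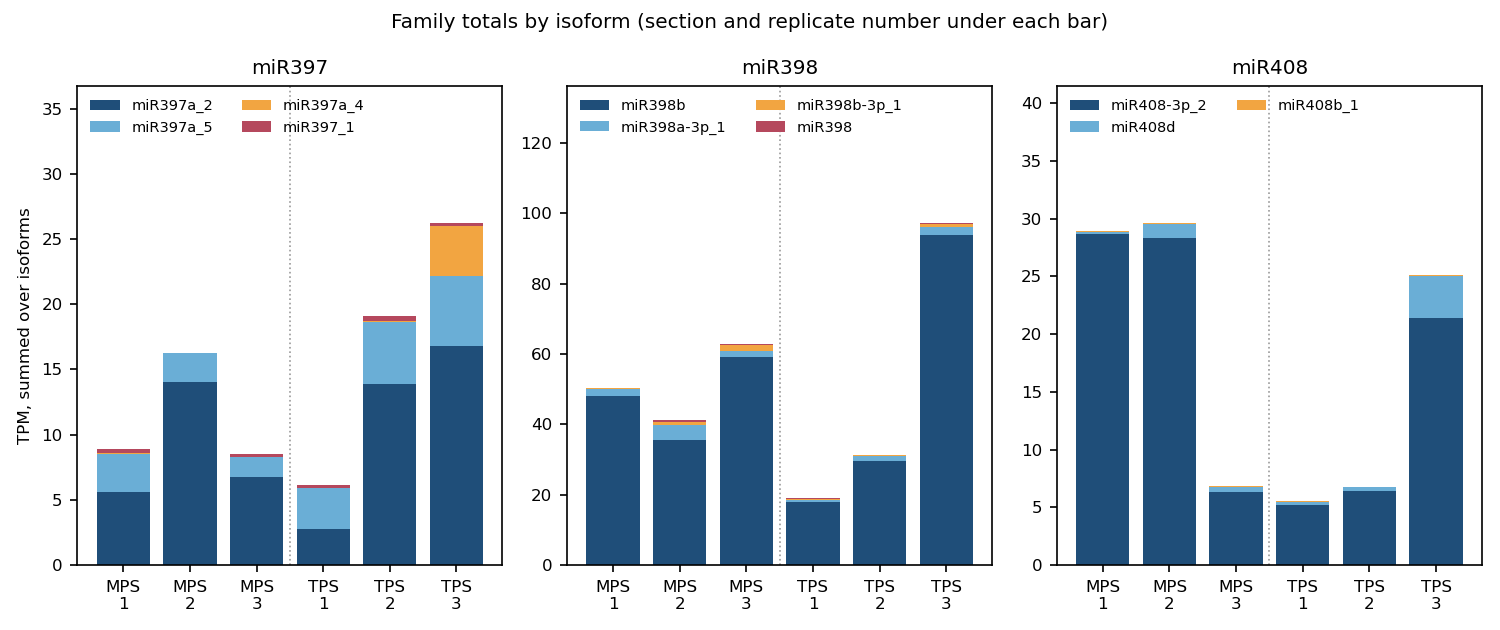
TPM summed over the isoforms of miR397, miR398 and miR408 (vertical axes, linear from 0) in each MPS and TPS library, with the isoforms stacked in colors. Single isoforms, miR398b and miR408-3p_2, made up most of miR398 and miR408, and the TPS replicate 3 bar was the highest for miR397 and miR398.

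miR398, the family directed at Cu-Zn superoxide dismutase, was the most abundant of the 3 families in each of the 6 libraries, with 41.4 to 62.9 TPM in MPS and 19.0 to 97.3 TPM in TPS. Nearly all of it was miR398b, which took 85.9 to 95.2% of the tags in MPS and 94.7 to 96.6% in TPS. miR398b had 47.9, 35.5 and 59.0 TPM in MPS, against 18.1, 29.7 and 94.0 TPM in TPS. The MPS libraries all lay within the range of the TPS libraries, which was set by a low replicate 1 and a high replicate 3. The means were 47.5 ± 11.8 TPM in MPS and 47.2 ± 40.9 TPM in TPS (SD, n = 3 each), and the log2 fold change was 0.03 (standard error 0.66, adjusted p = 0.982 from edgeR). Without TPS replicate 3 the log2 fold change of miR398b was 0.96, with an adjusted p of 0.515 from edgeR, the lowest of 14 alternative fits, whose highest was 0.988.

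The isoforms with A at position 15 were rarer. miR398a-3p_1 had 2.13, 4.35 and 1.96 TPM in MPS, against 0.42, 1.26 and 2.07 TPM in TPS. The highest TPS library lay above the lowest MPS library, so that the sections overlapped slightly. Its log2 fold change of 1.18 (standard error 0.72) was the most positive of the 7 members that passed the filter, and the adjusted p was 0.416 from edgeR, with 0.130 to 0.721 over 14 alternative fits. miR398b-3p_1, cut 1 base upstream, had 0.19, 0.79 and 1.51 TPM in MPS, against 0.42, 0.19 and 1.05 TPM in TPS, and its log2 fold change was 0.64 (standard error 0.91, adjusted p = 0.715 from edgeR). Its levels overlapped fully. The isoform miR398 had 4, 21 and 12 tags in MPS, against 2, 6 and 6 tags in TPS, and did not pass the filter. Its fitted log2 fold change without a filter was 1.45 (adjusted p = 0.440 from edgeR). miR398a-3p_1 took 10.5% of the miR398 tags in MPS replicate 2 (95% Wilson interval 8.95 to 12.3%), against 2.12 to 4.22% in the other 5 libraries.

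miR408, which acts on plantacyanin and laccases, was mostly miR408-3p_2. This isoform had 28.7, 28.3 and 6.33 TPM in MPS, against 5.16, 6.38 and 21.4 TPM in TPS. The libraries fell at a high and a low level, with MPS replicates 1 and 2 and TPS replicate 3 at the high one and the other 3 at the low one, which did not follow the sections. The means were 21.1 ± 12.8 TPM in MPS and 11.0 ± 9.06 TPM in TPS (SD, n = 3 each), and the log2 fold change was 0.97 (standard error 0.79, adjusted p = 0.533 from edgeR). The log2 fold change was between 0.55 and 1.86 in 14 alternative fits, none of which called it.

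miR408d, which lacks the first base, had 0.22, 1.28 and 0.45 TPM in MPS, against 0.29, 0.36 and 3.59 TPM in TPS. Again 1 library set the mean of a section, since TPS replicate 3 held 99 of the 119 tags of TPS. The log2 fold change was -1.06 (standard error 1.17, adjusted p = 0.655 from edgeR), and 0.99 without TPS replicate 3 (adjusted p = 0.667 from edgeR, with 0.492 to 0.862 over 14 alternative fits). The 2 isoforms of miR408 thus had fitted changes of opposite sign, neither of which passed the test. Isoforms of miR408 with T at the start, miR408d and the few tags of miR408b_1, took 0.973 to 7.08% of the family in MPS, against 5.29 to 14.6% in TPS, with the highest share in TPS replicate 3. In total, with miR408b_1 included, miR408 had 28.9, 29.6 and 6.81 TPM in MPS, against 5.55, 6.74 and 25.1 TPM in TPS.

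**Figure D3:**
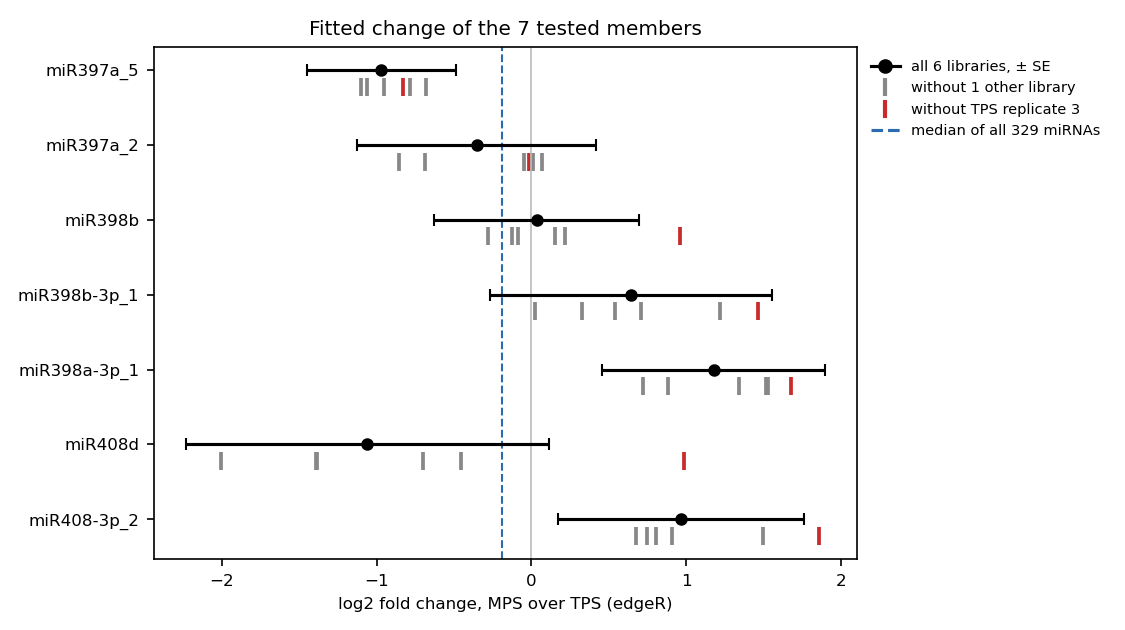
Log2 fold changes of MPS over TPS from edgeR (horizontal axis) for the 7 members that passed the filter on low counts, as points with standard errors, with ticks below them for the fits without 1 library. The tick without TPS replicate 3 (red) lies right of all others for 5 members, and for miR408d it stands at 0.99, across 0 from the fit with all libraries at -1.06.

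TPS replicate 3 held the highest level of 5 of the 10 members, and the highest level within TPS of 9. TPS replicate 1 held the lowest level of 6 members. Both are TPS libraries, and they set the lowest and the highest level of miR398b and of miR397a_2. The SD was not larger in TPS for every member, and for miR408-3p_2 it was 12.8 TPM in MPS against 9.06 TPM in TPS. The totals of the families correlated over the 6 libraries at Pearson's r = 0.530 for miR397 and miR398, 0.436 for miR397 and miR408, and 0.554 for miR398 and miR408. These values, and those of likeness that follow, are descriptions over points that come from the same 6 libraries. Among 208 other miRNAs with a mean of at least 10 TPM, the total of miR397 was most like novel_mir1 (r = 0.845) and novel_mir175 (r = 0.778) over the 6 libraries. The total of miR398 was most like miR166h-3p (r = 0.850) and miR166u (r = 0.842), and that of miR408 was most like miR166e (r = 0.920) and miR167d-5p (r = 0.897). For each family these are the highest values picked from 208, each over 6 libraries. How high such picked values run for unrelated miRNAs was not tested.

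To set beside these families, 11 genes were followed in whole-transcriptome libraries of the same samples, with 49056682 to 52971221 expected counts per library. They were the 2 laccase genes that the study's text names as predicted targets of miR397, and 9 genes with copper-related names in the copy at hand of its list of genes that differ. That list was made from these samples, so that counts over it are not independent evidence. Gene IDs were matched by their number to the entries in the files, and the names are those of the best matches in other species. Of the 11 genes, 4 passed the filter on low counts, all of them polyphenol oxidases (PPO), copper enzymes that oxidize phenols to quinones. edgeR called 0 of these 4, while it called 0.758% of the 13585 genes tested. All 4 had an unadjusted p under 0.05, as did 15.7% of the genes tested. Without 1 library at a time it called between 0 and 40 genes.

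Both laccase genes were low in TPS, and neither was called. BntWG10014339 had 1.87, 0.60 and 0.07 FPKM, fragments scaled to transcript length and library size, in MPS, against 0.01, 0.06 and 0.05 FPKM in TPS. These came from 154, 47 and 5 expected counts in MPS, against 1, 5 and 4 in TPS. All MPS libraries were above all TPS libraries in FPKM, but MPS replicate 3 was level with TPS replicate 2 in expected counts. BntWG10014338 had 0.03, 0.16 and 0.01 FPKM in MPS and was listed at 0 in all TPS libraries, and the MPS values came from 2.55, 11.89 and 1 expected counts. Neither gene passed the filter. Without it, the adjusted p from edgeR was 0.307 for BntWG10014339 and 0.391 for BntWG10014338.

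Of the 4 PPO genes, 2 were higher and 2 lower in MPS. The main edgeR fit, with all libraries and no block, called none of them, while several alternative fits did. BntWG10007826 had 1.29, 18.1 and 4.90 FPKM in MPS, against 0.02, 0 and 0.07 FPKM in TPS (log2 fold change 7.97, standard error 1.49, adjusted p = 0.0772 from edgeR). BntWG10007827 had 0.06, 1.00 and 1.63 FPKM in MPS, against 77.2, 481.9 and 505 FPKM in TPS (log2 fold change -8.65, standard error 1.58, adjusted p = 0.0756 from edgeR). The sections did not overlap in any of the 4 PPO genes, which came from the study's list of genes that differ. This was so for 21.9% of the genes tested. BntWG10007828 had 0, 0 and 0.02 FPKM in MPS, against 0.65, 5.48 and 8.04 FPKM in TPS (log2 fold change -9.01, standard error 1.57, adjusted p = 0.0722 from edgeR). These are neighbouring gene numbers of similar proteins, so that reads may have been split between them, and the sizes depend on how values near 0 are treated. With the replicate number as a block, edgeR called BntWG10007827 (adjusted p = 0.0427) and BntWG10007828 (adjusted p = 0.0474), 2 of the 4 tested, while this fit called 0.515% of all genes. BntWG10007826 had an adjusted p of 0.103 in that fit. DESeq2 and the edgeR fit with a term for replicate 1 called BntWG10007826, BntWG10007827 and BntWG10007828. Limma called BntWG10007827 alone of the 4 (adjusted p = 0.00988). Over all genes, DESeq2 called 1082, the fit with a term for replicate 1 called 385 and limma called 373. The adjusted p depended widely on the fit, over 13 alternatives from 3.0e-09 to 0.289 for BntWG10007826, from 1.1e-13 to 0.300 for BntWG10007827 and from 4.2e-08 to 0.290 for BntWG10007828, each lowest in DESeq2. The fourth gene, BntWG10000775, had 1.35, 3.46 and 1.41 FPKM in MPS, against 0.19, 0.32 and 1.03 FPKM in TPS, and the log2 fold change was 2.0 (standard error 0.80, adjusted p = 0.304 from edgeR).

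**Figure D4:**
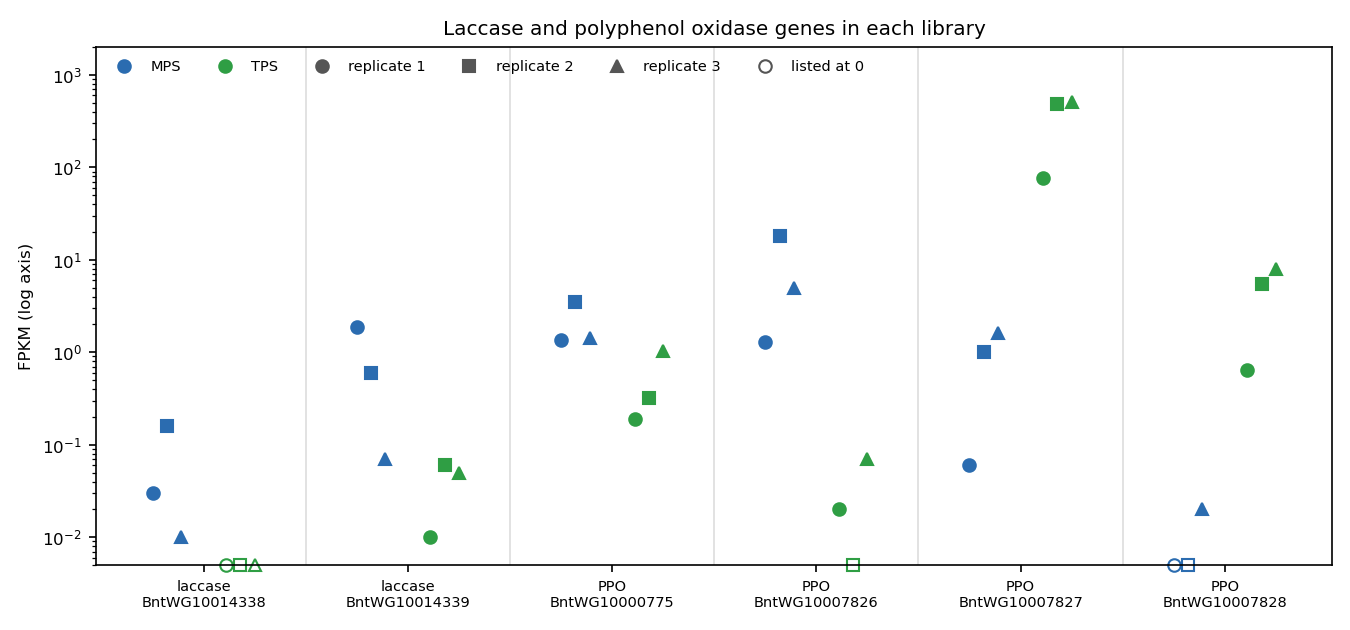
FPKM (vertical axis, log scale) of the 2 laccase and 4 PPO genes in each MPS (left) and TPS (right) library, with marker shapes for the replicate number and open markers on the bottom line for genes listed at 0. BntWG10007826 and BntWG10007827 lie apart in opposite directions, while both laccase genes stay below 2 FPKM.

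The other 5 genes were at or near 0. The gene matched to the copper-transporting ATPase PAA2 (BntWG10002140) was listed in MPS replicate 3 alone, at 0.14 FPKM. A Cu-Zn superoxide dismutase gene (BntWG10002168) is of the kind on which miR398 acts in Arabidopsis. It was listed at 0 in the MPS libraries and had 0.20, 0.09 and 0 FPKM in TPS. An iron superoxide dismutase gene (BntWG10006407) had 0, 0.44 and 0.32 FPKM in MPS and was listed at 0 in TPS. Superoxide dismutase genes outside the study's list of genes that differ were not looked up. The ascorbate oxidase-like gene (BntWG10002355) had at most 0.10 FPKM in MPS and 0.04 to 0.55 FPKM in TPS. A gene matched to proteins named SPL7 in mulberry and rice (BntWG10010765) had 0, 0 and 0.09 FPKM in MPS, against 0.02, 0.02 and 0.37 FPKM in TPS. Whether it is the counterpart of the copper sensor of Arabidopsis was not tested. At these counts, no difference between the sections was detectable for them.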

How the data were processed

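Bark of MPS and TPS was sequenced for small RNAs and whole transcriptomes, with 3 libraries each. Small RNA counts were made by the authors from clean tags aligned with miRBase (AASRA) and Rfam (CMsearch), with PIPmiR for further miRNAs. The deposited TPM values are these counts per 1000000 tags of the library total in the file header, within 0.005. The authors made the expected count values with Bowtie2 and RSEM, and FPKM values from the same alignments, and genes not listed in a library were taken as 0. HISAT, StringTie and Cufflinks are named in the submitters' processing notes. The sources used here give no versions and do not say how tags that match several names were assigned, so that isoform levels rest on that choice. No circRNA values were used.

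Counts were compared with edgeR 4.0.16 in R 4.3.3 (quasi-likelihood, TMM, filterByExpr, header totals as library sizes for small RNAs, rounded expected counts in 1 fit for all transcripts, with p adjusted over genes). Standard errors were approximated by dividing the size of the log2 fold change by the square root of F. Scripts were tested on simulated data. Alternatives used DESeq2 1.42.0, limma 3.58.1 on log2 values with 0.5 added, other size factors, filters and library sizes, a replicate block, a term for replicate 1, and each library left out. Exact permutation tests and plots used Python 3.11.15 with scipy 1.17.1 and matplotlib 3.10.9. The named items were all members, the 2 laccase genes, genes with copper-related names, and the 2 miRNAs most like each family total. Members and lists were chosen with earlier results of these data known.

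Deviations of same-numbered libraries from their section means correlated at 0.786, 0.555 and 0.487 for miRNAs and 0.600, 0.298 and 0.364 for genes. All were over 0.1, so the block was run as an alternative fit, on the data alone. The main fits had no block, and they gave the fold changes, standard errors and adjusted p unless another fit is named. Replicates 2 and 3 correlated across numbers about as well, at 0.514 and 0.343 for miRNAs and 0.291 and 0.370 for genes, so that the values set replicate 1 apart and do not show 3 separate pairs.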

Additional observations from a re-analysis of the deposited data

Results flagged for a closer look

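Tags of MIR398 precursors, which the comparisons do not use, were more than the 3 counts taken as the limit for a count of 0 in 3 libraries. There were 5 tags in MPS replicate 2, 4 tags in MPS replicate 3 and 11 tags in TPS replicate 3, against 3 tags in MPS replicate 1 and 1 tag each in TPS replicates 1 and 2. TPS replicate 3 was also the library with the highest level of miR398b. MIR408 precursor tags occurred in MPS replicate 2 alone, at 3 counts. The difference between libraries was not tested. Groups of 3 libraries were too small for a test of single deviating libraries.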

How the results depend on the processing

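No member of the 3 families was called under any alternative. Over all miRNAs, edgeR called 0, DESeq2 47, limma 9 and the fit with a term for replicate 1 31, and the fits without 1 library called 0 to 5 (5 without TPS replicate 1). Signs turned for miR398b (-0.25 with replicates 2 and 3 only, an alternative chosen after seeing the data, -0.08 without MPS replicate 3, -0.28 without TPS replicate 1 and -0.12 without TPS replicate 2), for miR397a_2 (0.066 without MPS replicate 1 and 0.010 without TPS replicate 2) and for miR408d (0.99 without TPS replicate 3). Without 1 library, the log2 fold changes were -0.28 to 0.96 for miR398b, -0.85 to 0.066 for miR397a_2 and -2.0 to 0.99 for miR408d. The log2 ratio of the miR398 totals, 0.067, was -0.23 per miRNA tag and -0.32 to 1.04 without 1 library, the highest without TPS replicate 3. The ratio was -1.02 to -0.17 for miR397 and 0.45 to 1.83 for miR408. The 103 genes called became 1082 with DESeq2, 373 with limma, 18 without a filter, 385 with the replicate 1 term, 315 with replicates 2 and 3 only, and 0 to 40 without 1 library. With the replicate block, 0 miRNAs and 70 genes were called, and among the members and the 11 genes it changed no other call than those of BntWG10007827 and BntWG10007828. The causes were not tested. The rarest members, with 43 to 112 tags in all, limit what can be seen of them.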
